A study of Mus musculus with 3 samples.

Results

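DNA bound by RUNX1 in mature mouse megakaryocytes (MKs) was compared with input DNA over the territory of every protein-coding gene, and the genes were ranked by the ratio. A territory was the gene body with 20 kb on either side. All 22367 protein-coding genes on chromosomes 1 to 19, X and Y of the mouse build mm9 (GENCODE M1 annotation) entered the ranking, and no gene was chosen by its value. The series holds 3 chromatin immunoprecipitation sequencing (ChIP-seq) libraries, 1 each for RUNX1, FLI1 and input. All 3 come from wild-type CD1 fetal liver cells grown for 5 days with thrombopoietin. Cells of non-MK lineages were then removed by antibody, and the mature MKs (MK_Mat) were collected by their size through sedimentation in albumin. The labels give embryonic day 15 and the study's methods an earlier day. Each library was made from DNA pooled over at least 3 precipitates or preparations, so the spread between them cannot be seen, no test was possible, and every interval given here covers counting error only.

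MKs are the large polyploid bone marrow and fetal liver cells that shed platelets. RUNX1 is a DNA-binding protein of the Runt family that acts together with its non-DNA-binding partner CBFB, recognises the core sequence TGTGGT or TGCGGT, and is needed for MK maturation and normal platelet numbers. Platelet genes encode surface receptors, granule contents, a contractile and microtubule cytoskeleton, and signalling enzymes that the mature cell makes before it releases platelets. FLI1, an ETS family protein also needed for MK maturation, was measured in the same cells and is used below only as a second precipitate beside RUNX1. Both ratios share the 1 input library, so the values are set side by side and no test of a relation between them is given.

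The RUNX1 file was shallow. After leaving out chromosome M it held 3973856 reads, each at a distinct position and strand, against 21745220 input positions and 62946422 FLI1 positions. The study's supplement lists many times more uniquely mapped tags for RUNX1 than this file holds positions, and only somewhat more for FLI1, so the depth here is that of the deposited positions and not of the sequenced library. Input counts were multiplied by 0.183 to this RUNX1 depth. A territory held a median of 103 RUNX1 reads (quartiles 75 and 152) and 112 scaled input reads, at a median length of 55.4 kb. The 95% counting interval of a ratio had a median half-width of 0.31 on the log2 scale, or 1.24-fold, so a difference smaller than this was not detectable in a typical territory. Territories overlap: 19478 genes (87.1%) share ground with a neighbour, and the 22367 genes fall into 6065 separate groups. Bins of 400 bp with 47 or more input reads were left out, which removed 314 bins.

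Among the genes named below by the rules given in the methods, 36 had a 400-bp bin of at least 6 RUNX1 reads whose centre was searched for the Runt core on both strands. The mean over the genome was 0.619 RUNX1 reads per bin. A core lay within 50 bases of the read centre in 7 of the 36 windows (19.4%), against 8.08% of all windows of 101 bases in gene territories. These shares were not matched for GC content or input reads, so their difference is not a measure of RUNX1 binding. The 6 windows outside untranslated regions are shown because they are the narrowest pieces of DNA to which reads of named territories can be tied. They are given 5′ to 3′ on the plus strand of mm9, with the core, or its reverse complement where the core lies on the minus strand, in capitals. The reverse complement of the first form reads ACCACA and that of the second form reads ACCGCA.
Itgb3, intron, chr11:104473037-104473137: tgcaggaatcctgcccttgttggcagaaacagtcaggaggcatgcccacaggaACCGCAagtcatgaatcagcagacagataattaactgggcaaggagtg
Gfi1b, 22.5 kb downstream of the gene start, chr2:28454923-28455023: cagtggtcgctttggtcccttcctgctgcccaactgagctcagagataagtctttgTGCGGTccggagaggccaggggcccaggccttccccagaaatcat
Ppbp, at -14.9 kb from the gene start, chr5:91182615-91182715: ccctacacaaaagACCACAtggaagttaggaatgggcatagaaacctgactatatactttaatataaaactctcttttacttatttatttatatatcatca
Mmp9, intron, chr2:164768496-164768596: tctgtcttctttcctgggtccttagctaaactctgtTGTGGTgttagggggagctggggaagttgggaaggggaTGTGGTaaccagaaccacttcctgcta
Vpreb1, promoter, chr16:16871156-16871256: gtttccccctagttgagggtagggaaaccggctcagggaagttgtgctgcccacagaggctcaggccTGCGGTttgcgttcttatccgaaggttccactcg
Gm10801, 4.08 kb from the gene start, chr2:98506420-98506520: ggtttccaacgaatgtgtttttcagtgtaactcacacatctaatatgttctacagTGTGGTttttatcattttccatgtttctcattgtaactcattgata

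The bins around these windows differed in how far other libraries shared them. The Itgb3 intron bin held 13 RUNX1, 13 input and 182 FLI1 reads, the last 2 before any scaling. The Gfi1b bin held 13 RUNX1, 8 input and 377 FLI1 reads, and the Mmp9 bin 7 RUNX1, 8 input and 306 FLI1 reads. The Vpreb1 bin held 6 RUNX1, 2 input and 257 FLI1 reads, whereas the Ppbp bin held 13 and the Gm10801 bin 8 FLI1 reads. The FLI1 file was the deepest, and the mean bin without a RUNX1 read held 8.47 FLI1 and 3.04 input reads. All these bins were chosen for their RUNX1 reads. Input was above that mean at Itgb3, Gfi1b and Mmp9 as well.

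The log2 ratio of RUNX1 to scaled input, with 5 reads added to each, centred just below an equal share. Its median was -0.08 (SD 0.32 over genes), with quartiles of -0.29 and 0.12 and a range from -2.33 to 2.88. A log2 ratio of 0.3 (1.23-fold) or more was reached by 2345 genes (10.5%), and one of -0.3 (0.812-fold) or less by 5287 (23.6%). With input scaled so that the median territory had equal reads, the counts were 3589 and 3643. By counting error alone, the interval lay above an equal share in 2560 genes (11.4%) and below it in 5587 (25.0%). The limits of these intervals were computed without the 5 added reads. At the threshold the order is arbitrary: Sult1c1, 5033411D12Rik and Cby3 were just inside at 0.30, and Ccng1, Skint1 and Myf5 just outside at 0.30.

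**Figure D1:**
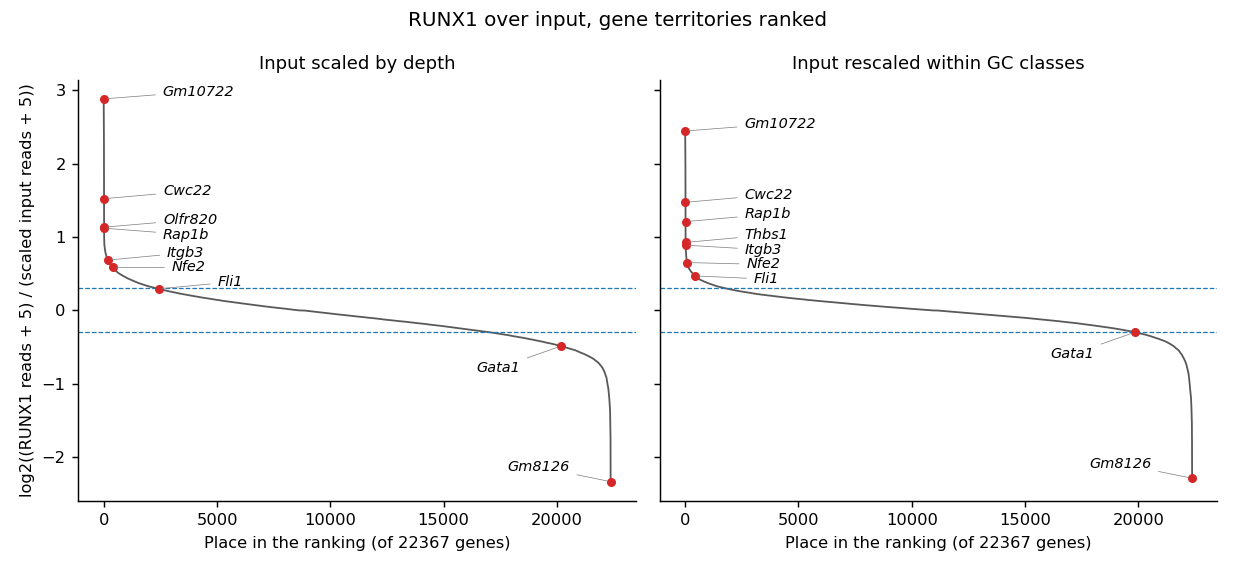
All 22367 gene territories in order of their log2 ratio of RUNX1 to scaled input reads (vertical axis) against rank (horizontal axis), before and after rescaling input within GC classes, with named genes marked. Before rescaling, the middle of the ranking lies between the quartiles of -0.29 and 0.12, and the steep left end is set by a cluster on chromosome 9 that reaches 2.88.

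The head of the ranking was not made of platelet genes. In the top 200, 78 genes were olfactory receptors, of which there are 1113 among the 22367 genes. Clustered histone genes, of which there are 67, made up 19. MK_Mat genes, which the study lists as higher in mature than in immature MKs, made up 6 (3.00%), against 3.07% of all genes. The 20 highest territories were taken from the top, skipping any that overlapped a territory already taken. They included 8 olfactory receptors, which are odorant receptors of nasal neurons, and 2 bitter taste receptors, Tas2r102 and Tas2r109.

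The first place went to a cluster of 12 predicted genes at chr9:3000922-3038316, with log2 ratios from 2.25 to 2.88. Gm10722, the highest, had 770 RUNX1 reads against 100 scaled input reads. This order depended on how repeated input reads were handled. The input holds positions and strands that occur more than once (3.24% of its reads), and the RUNX1 file holds none. Over Gm10722 the input held 548 distinct positions but 6855 reads, and with repeated positions kept, the 12 genes fell to between -0.86 and -0.58. Between 6 and 15 of the bins in each of these territories had been left out. The FLI1 log2 ratio of the 12 was between -0.21 and 0.08. Across all genes, 16 moved by 0.3 or more when repeated positions were kept, and these 12 were the only ones of 0.3 or more that went below 0. The part of repeated sequence in this first place was not tested further.

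Cwc22, which encodes a splicing factor, had 1321 RUNX1 reads against 457 scaled input reads, a log2 ratio of 1.52 (counting interval 1.44 to 1.63). The excess was spread over its territory, chr2:77719216-77784432 with flanks, where 121 bins held 6 or more RUNX1 reads. Input was also dense there, at 23.8 positions per kb against a median of 10.5, and the FLI1 log2 ratio was 0.81. Gm4788 (log2 ratio 1.63) was the opposite case, with 42 RUNX1 reads against 10.2 scaled input reads over 124 kb and only 0.453 input positions per kb.

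Rap1b, the small GTPase that switches on the platelet fibrinogen receptor, was the highest gene of platelet function. Its territory on chromosome 10 (gene at 117251527 to 117282991) held 309 RUNX1 reads against 139 scaled input reads, a log2 ratio of 1.12 (0.95 to 1.34), at ordinary GC content (43.6%) and ordinary input density (10.7 positions per kb). FLI1 gave 1.14 over the same territory.

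The other 16 of the 20 shared a base composition. Their log2 ratios ran from 0.87 (Olfr805) to 1.13 (Olfr820), their GC content from 34.5 to 38.3% and their input density from 2.42 to 6.83 positions per kb, all below the median input density. In 13 of the 16 no bin held 6 RUNX1 reads. Olfr820 had 93 RUNX1 against 39.7 scaled input reads, and Olfr304 had 90 against 40.8. Pcdh11x, a protocadherin gene on chromosome X, had 759 against 401 over its long territory. A530053G22Rik (1.06), Olfr1094 (0.98), Olfr1179 (0.97), Olfr851 (0.92), Olfr196 (0.90), Tas2r102 (1.00), Tas2r109 (0.90), Tex16 (0.90), G6pd2 (0.89), Prl7b1 (0.89), Gm10801 (0.88) and Olfr1160 (0.88) completed the head. With repeated input positions kept, Gm10801, where 9 bins had been left out, went to 0.38. Over the short gene bodies alone, Olfr820, Olfr304, Olfr851, Olfr196, G6pd2 and Olfr1160 were below 0. Their FLI1 log2 ratios ran from 0.19 to 0.67.

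The foot of the ranking held many predicted genes, and of the 10 named here all but Gm10318 (12.4 input positions per kb) lay below the median input density of 10.5. Gm8126 was lowest at -2.33, with 1 RUNX1 read against 25.2 scaled input reads (counting interval -9.97 to -2.15), followed by Gm7168 at -2.22 with 6 against 46.2. Apol10a (-1.76, 2 RUNX1 reads, -6.29 to -1.33), Gm1604A (-1.61), B430203G13Rik (-1.57), Gm10318 (-1.56), Gm2964 (-1.51), Gsdmc4 (-1.50), Gm2016 (-1.49) and Gm9880 (-1.48) came next. These 10 held 1 to 28 RUNX1 reads each. Their FLI1 log2 ratios, against the same input, lay between -2.03 and -0.64.

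The ranking of territories fell with GC content. With genes split into 10 equal classes (deciles) by the GC content of their territory, the median log2 ratio went from 0.32 in the lowest decile (33.8 to 39.0% GC) to -0.31 in the highest (50.6 to 57.2% GC). In the lowest decile 53.8% of genes reached 0.3, and in the highest 1.88%. Over the 21677 territories with 20 or more reads (RUNX1 plus scaled input), Pearson's r between log2 ratio and GC content was -0.55 and Spearman's rho -0.57, given as a description because genes share libraries and neighbours. For FLI1 against the same input the median was 0.25 in the lowest decile and -0.22 in the highest.

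Read length (50 bases in both precipitates, 34 in input), the file format and perhaps the aligner, which is not given for input in the sources used here, the fragmentation of the input, which the methods describe as nuclease digestion and the labels as sonication, and the library kit all differ or may differ between RUNX1 and input. They cannot be told apart here, and their part in the gradient was not tested. The ranking was therefore also computed with input reads weighted by the RUNX1 to input ratio of their GC class (400-bp bins in classes 2% wide). In single bins this ratio did not fall throughout: it was 2.00 at 64 to 66% GC and 5.42 at 70% or more, so the weights raise input in the few GC-richest bins. This rescaled ranking had a median of -0.00 and an SD of 0.26. At 0.3 or more it held 1794 genes (8.02%), and at -0.3 or less 2488 (11.1%). The deciles then ran from 0.06 to -0.11 and r was -0.12, so a weak gradient remained. The counting interval lay above an equal share in 2235 genes (9.99%) and below it in 2257 (10.1%).

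**Figure D2:**
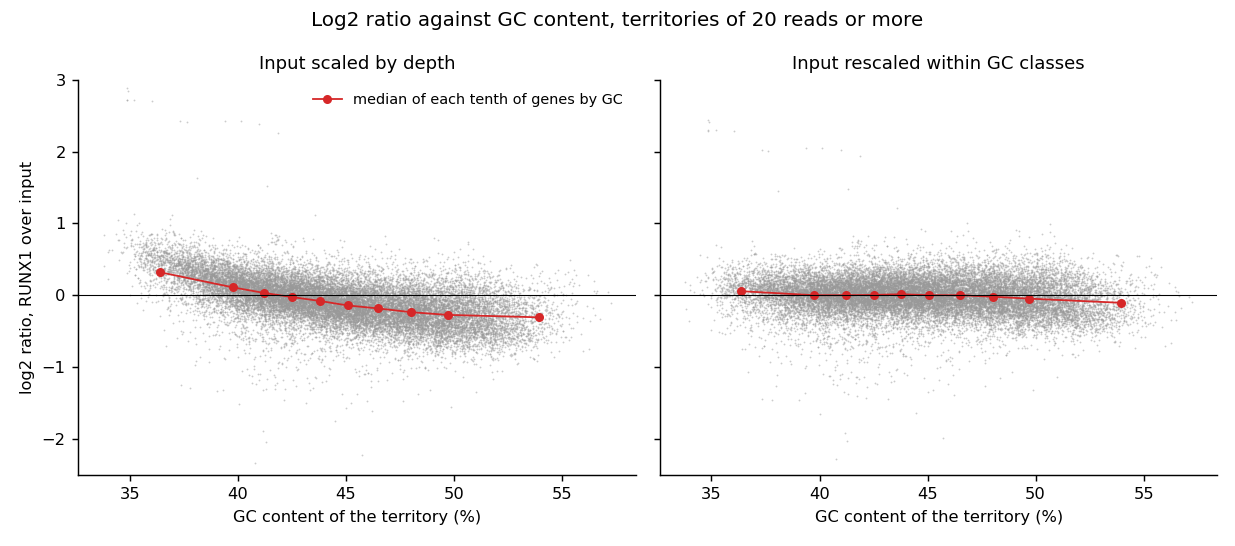
Log2 ratio of RUNX1 to input (vertical axes) of each territory with 20 or more reads (points) against the GC content of the territory in percent (horizontal axes), before and after rescaling input within GC classes. The medians of deciles run from 0.32 to -0.31 before rescaling and from 0.06 to -0.11 after it.

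Rescaling exchanged most of the head of the list. Of the top 200, 72 genes (36% of each list) were shared. Olfactory receptors went from 78 to 8, histone genes from 19 to 21, and MK_Mat genes from 6 to 23 (11.5%). The median GC content of the top 200 went from 37.0% to 45%, against 44.4% over all genes.

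The genes that then led, skipping any whose territory overlapped a territory already taken, included several of platelet function, some only as neighbours of a leader. They were named here after their values were seen. After the chromosome 9 cluster, Cwc22 (1.47) and Gm4788 (1.45), Rap1b stood at a rescaled log2 ratio of 1.21 (1.04 to 1.43). Vsig2 followed at 1.00, in a territory that it shares with Esam (0.82), an adhesion molecule of platelet and endothelial contacts, and Nrgn (0.89), which encodes a calmodulin-binding protein. Frmd8 was at 0.99, Thbs1 (thrombospondin, a granule glycoprotein) at 0.93 and Gm17507, which overlaps the early response gene Egr1, at 0.91. Myl4 at 0.90 shares its territory with Itgb3 (0.89), the beta 3 chain of the platelet fibrinogen receptor. Nacc1 was at 0.88, beside Lyl1 (0.59), a helix-loop-helix factor of blood progenitors. Rnasek at 0.85 lies beside Alox12 (0.69), the platelet lipoxygenase, and Gm17607 at 0.84 beside Vamp8 (0.58), a fusion protein of granule release. These neighbours, like Lyl1, were named for their roles in platelets or blood. In all, the territories of Nacc1, Rnasek and Gm17607 overlap those of 6, 5 and 7 other genes. Gadd45g (0.83), Xcr1 (0.82), Lamtor3 (0.82), Gm4694 (0.81), Hnrnpa1 (0.81, beside Nfe2), Gfi1b (0.80) and Hist1h2bh (0.77) followed. Over gene bodies alone and before rescaling, Frmd8 (-0.021), Hnrnpa1 (-0.097), Gfi1b (-0.034) and Hist1h2bh (-0.052) were below 0, and Frmd8 was at -0.14 over 20 kb to either side of its start. Because neighbours share reads, the ratio does not say which gene of such a group the RUNX1 reads belong to.

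Reads in these loci were laid out differently. Over Rap1b the RUNX1 to rescaled input ratio was 3.61 (2.88 to 4.51) in the 20 kb downstream of the gene, with 128 RUNX1 reads, 2.00 (1.61 to 2.47) in the gene body and 1.72 (1.26 to 2.30) upstream. The downstream stretch stood above the other 2 by more than counting error, and it overlaps the next gene, Nup107 (rescaled log2 ratio 0.73). Over its gene body alone and before rescaling, Nup107 was at -0.11. At Itgb3 the ratio was even, 2.05 upstream, 1.83 in the body and 1.81 downstream. Thbs1 had 85 RUNX1 reads and a ratio of 2.99 (2.28 to 3.88) in its 15.3-kb body, 2.38 downstream and 0.97 (0.68 to 1.36) in the 20 kb upstream. Gfi1b, a zinc finger repressor needed for MK and red cell formation, was lowest in the body, at 1.23 (0.82 to 1.80). It had 2.18 (1.68 to 2.79) downstream and 1.76 (1.29 to 2.38) upstream, and these intervals overlapped that of the body. FLI1 over rescaled input was highest in the same parts, downstream at Rap1b (2.80) and Gfi1b (2.34), in the body at Thbs1 (3.22) and upstream at Itgb3 (2.02).

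**Figure D3:**
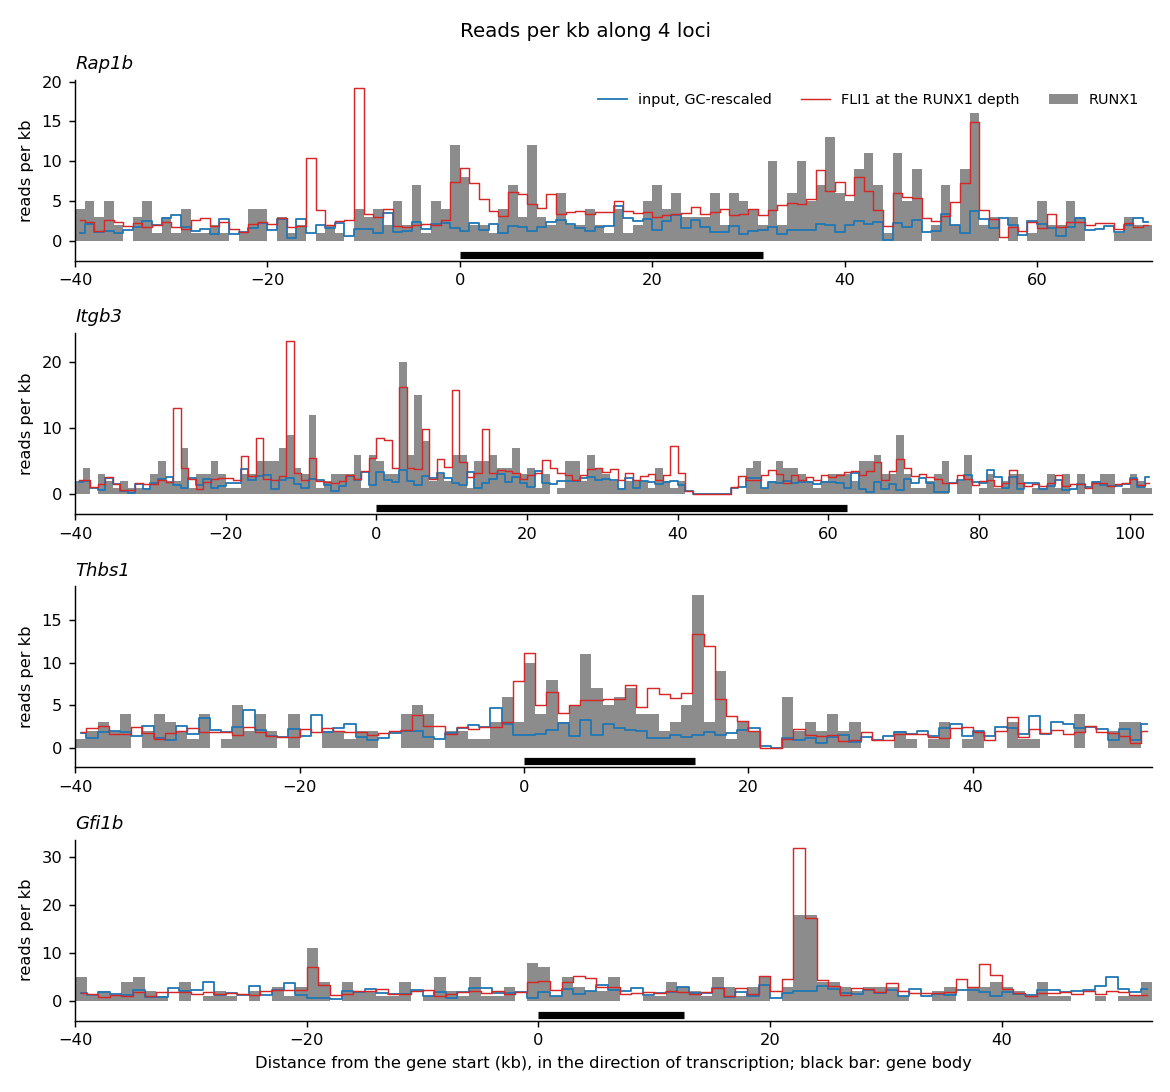
Reads per kb (vertical axes) of RUNX1 (grey bars), GC-rescaled input (blue) and FLI1 scaled to the RUNX1 depth (red) around Rap1b, Itgb3, Thbs1 and Gfi1b, against distance from the gene start in kb in the direction of transcription (horizontal axes, black bar for the gene body). RUNX1 stands above input over a broad stretch downstream of Rap1b, where the ratio over 20 kb was 3.61, along the body of Thbs1, and in a narrow stretch 22.5 kb downstream of the Gfi1b start.

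Leaving out all bins of 6 or more RUNX1 reads lowered these territories without removing them. Rap1b went to a rescaled log2 ratio of 0.98, Itgb3 to 0.78, Thbs1 to 0.63, Gfi1b to 0.59 and Esam to 0.77. Cwc22 went from 1.47 to 0.65 and Gm10722 from 2.44 to 0.63. Most of the excess over the platelet loci thus lay in bins of few reads, which at this depth do not resolve into sites.

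The genes around which the study turns spread over the ranking. RUNX1's own gene, Runx1 (chr16:92601712-92826311), had 697 RUNX1 against 608 scaled input reads, a log2 ratio of 0.20 (0.08 to 0.31) and 0.42 after rescaling, with its richest bin, of 14 reads, in an intron. Cbfb, its partner, was at 0.16 (-0.08 to 0.40) and 0.17, an interval that includes an equal share. Fli1 had 418 against 340 reads, 0.29 before and 0.47 after rescaling. Nfe2, which encodes the MK subunit of NF-E2, had 147 against 96.3 reads and a log2 ratio of 0.59 (0.34 to 0.88), with a promoter bin of 19 RUNX1, 4 input and 393 FLI1 reads.

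Gata1, the erythroid and MK GATA factor, stood on the other side, with 59 RUNX1 against 84.6 scaled input reads and a log2 ratio of -0.49 (-0.94 to -0.13). After rescaling it was -0.30, with an interval of -0.74 to 0.07 that includes an equal share. Its FLI1 log2 ratio was 0.07. Itga2b, the partner chain of Itgb3, was at 0.10 and 0.20 (-0.08 to 0.49). The intervals of these fibrinogen receptor genes did not overlap after rescaling. Pf4, a granule chemokine gene, was at 0.51 (0.22 to 0.84), and Amd1, an enzyme of polyamine synthesis, at 0.27 (-0.02 to 0.58).

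The shares of the 5 platelet gene lists at 0.3 or more stood above that of all genes before and after rescaling. These lists were drawn up from textbook roles with earlier results of these data known, so their counts are a description beside those of all genes. Of 28 platelet receptor genes, 7 (25%) reached 0.3 before rescaling and 12 (42.9%) after it, against 10.5% and 8.02% of all genes. The median was 0.25 and 0.26, against -0.08 and -0.00 for all genes. Itgb3 had 352 RUNX1 against 217 scaled input reads and Esam 180 against 113. Clec1b, the podoplanin receptor, had 124 against 89.5 (0.45). Gp1ba and Cd9, a von Willebrand factor receptor chain and a tetraspanin, reached 0.57 and 0.53 after rescaling. With flanks of 50 kb and no rescaling, Gp1ba was at -0.0072. Itga2, a collagen receptor chain (-0.18), and Gp1bb (-0.36) were among the lowest.

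The 31 signalling genes that could be matched, of 33, had 7 at 0.3 or more (22.6%) and 9 after rescaling (29.0%), against 10.5% and 8.02% of all genes. Rap1b was highest, followed by Rgs18, a regulator of G protein signalling (0.63, but 0.16 after rescaling at 36% GC), and Dok2, an adaptor (0.58 and 0.71). Rasa3, which turns Rap1 off, was at 0.30 and 0.59, but at -0.13 before rescaling over 20 kb to either side of its start. Src (-0.22), Gnaz, a G protein subunit (-0.34), and the receptor gene Pear1 (-0.44) were lowest. None of these 3 reached 0.3 after rescaling.

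Cytoskeletal genes gave 5 of 28 before rescaling (17.9%) and 11 after it (39.3%), against 10.5% and 8.02% of all genes. Vcl (vinculin) had 433 RUNX1 against 264 scaled input reads, 0.70 before and 0.65 after rescaling. Myh9, the non-muscle myosin heavy chain of MKs, had 376 against 280 reads and went from 0.42 to 0.70. Actg1, Pfn1 and Tpm4, genes of actin, of the actin monomer binding profilin and of a tropomyosin, were at 0.59, 0.51 and 0.51 after rescaling. With flanks of 50 kb and no rescaling, Actg1 was at -0.12 and Tpm4 at -0.064. Tln1 (talin), Sept5 and Wdr1 were lowest at -0.36, -0.44 and -0.44, in territories of 51.1, 53.1 and 47.8% GC, and went to -0.18, -0.33 and -0.18.

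Among 22 granule cargo genes, 7 (31.8%) reached 0.3, and 5 (22.7%) after rescaling, against 10.5% and 8.02% of all genes. The cargo median was -0.04 before and 0.10 after rescaling, against -0.08 and -0.00 for all genes. Thbs1 had 185 RUNX1 against 106 scaled input reads (0.77). Ppbp and Pf4, adjacent chemokine genes with overlapping territories on chromosome 5, were at 0.54 and 0.51 and count as 1 locus. Over its gene body alone Ppbp was at -0.65. Tgfb1 was at 0.65 and Srgn, the proteoglycan core of granules, at 0.49 after rescaling. Lgals3bp (-0.30), Gas6 (-0.52) and Proz (-0.64) were lowest. Of 26 genes of granule biogenesis and release, 6 (23.1%) reached 0.3 before rescaling and 4 (15.4%) after it, against 10.5% and 8.02% of all genes. The second share is near the 13.6% of the lymphoid and hepatocyte lists given below. Gfi1b, also on this list, had 172 against 118 reads, Rab38 was at 0.42 and Rab27b at 0.42, and Vamp8 went from 0.34 to 0.58. Slc18a2 (-0.23), Bloc1s3 (-0.25) and Rab32 (-0.29) were lowest.

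Transcription factors of MKs and progenitors gave 6 of 27 (22.2%) before rescaling and 11 (40.7%) after it, against 10.5% and 8.02% of all genes. Nfe2 (0.59), Gfi1b (0.53) and Elf1 (0.51, with 391 against 273 reads) were highest. Meis1 and Tal1 were at 0.43 and 0.40 after rescaling. At the other end, Ets1 had 277 RUNX1 against 362 scaled input reads (-0.38) and Erg 479 against 663 (-0.46). Both intervals stayed below an equal share after rescaling, at -0.43 to -0.06 and -0.39 to -0.11. Within the RUNX family, Runx1 was above Runx2 (0.07 after rescaling, interval -0.05 to 0.19) and Runx3 (0.01, -0.22 to 0.22), and the intervals of Runx1 and of these did not overlap.

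**Figure D4:**
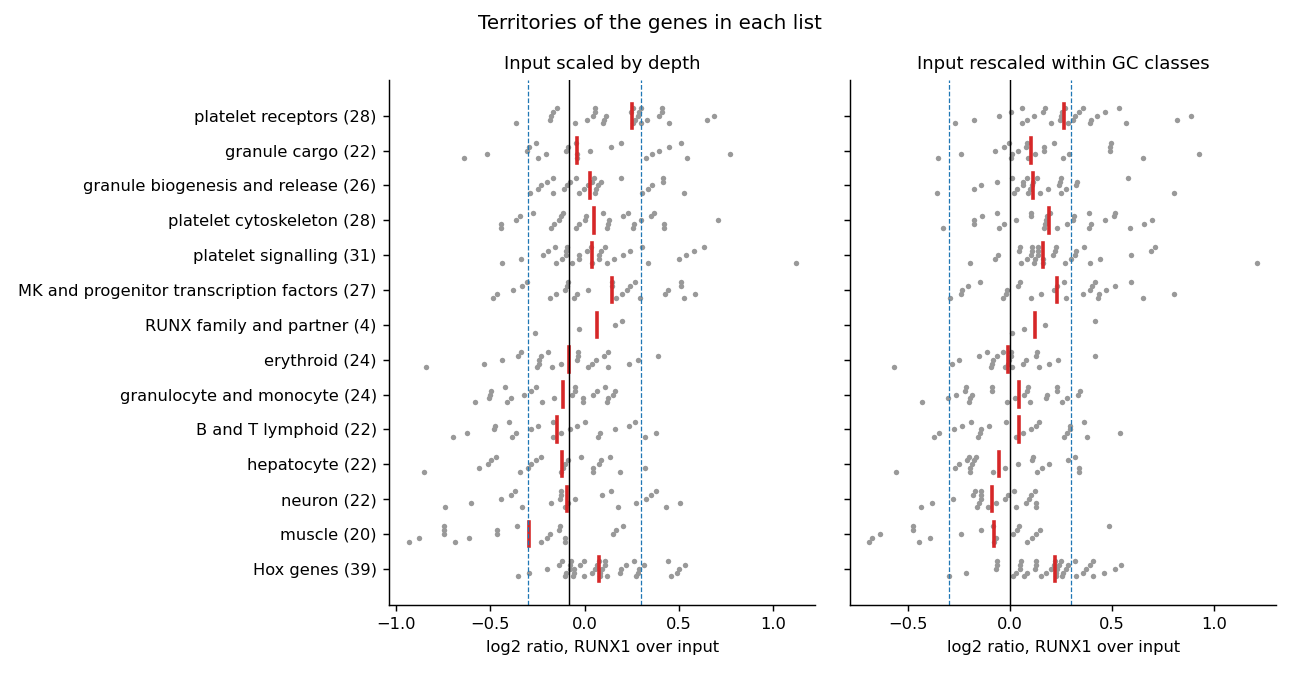
Log2 ratio of RUNX1 to input (horizontal axes) for each member (points) of the smaller gene lists (rows, number of genes in brackets), before and after rescaling input within GC classes, with list medians in red, the median of all genes in black and log2 ratios of -0.3 and 0.3 dashed. After rescaling the medians of the 5 platelet lists ran from 0.10 for granule cargo to 0.26 for platelet receptors, and that of Hox genes was 0.22. Those of the lists of other cell types lay between -0.09 and 0.04.

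The lists of markers of other cells all had smaller shares at 0.3 or more after rescaling than the 5 platelet lists. With bins of 6 or more RUNX1 reads also left out, this did not hold throughout. The hepatocyte share was then 18.2%, above the 15.4% of granule biogenesis and release. After rescaling alone the share of granule biogenesis and release was also 15.4%, from 4 of 26 genes. These 4 include Gfi1b, which is also on the transcription factor list, so the margin over the lymphoid and hepatocyte lists is narrow. After rescaling alone, 1 of 24 erythroid genes (4.17%), 2 of 24 granulocyte and monocyte genes (8.33%) and 3 of 22 B and T lymphoid genes (13.6%) reached 0.3. So did 3 of 22 hepatocyte genes (13.6%), 0 of 22 neuronal genes and 1 of 20 muscle genes, against 8.02% of all genes. That share was lower for long territories, at 11.7% in the shortest decile of genes by territory length and 1.61% in the longest. Neuronal territories had a median of 110 kb, in a length decile where 4.96% of genes reached 0.3. Before rescaling the counts were 1, 0, 2, 1, 5 and 0. The 5 neuronal genes (22.7%, against 10.5% of all genes) were as large a share as that of platelet signalling. None of these 5 neuronal genes reached 0.3 after rescaling, and the part of GC content in this was not tested. Lphn3, which encodes an adhesion receptor, had 1374 RUNX1 against 1018 scaled input reads in a territory of 37.1% GC. It was at 0.43 before and 0.13 after rescaling, and at -0.18 before rescaling over 20 kb to either side of its start.

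Among erythroid genes Hbb-y, an embryonic globin, was highest before rescaling (0.39, but -0.76 over its gene body alone), then Spna1 (0.28) and Hba-x (0.24), while Tspo2 (-0.44), Ank1 (-0.54) and Add2 (-0.84) were lowest. After rescaling Hba-x, another embryonic globin, led at 0.42 and Hbb-y was at 0.23. Cd3d led the lymphoid list at 0.38, with 130 RUNX1 against 98.9 scaled input reads, and 0.54 after rescaling. With bins of 6 or more RUNX1 reads left out it was 0.17, and its neighbours Cd3g and Cd3e went from 0.38 and 0.36 to 0.00 and 0.08, so this T cell receptor locus rested on few rich bins. Rag2 (0.32) and Rag1 (0.27) came next, and Vpreb1 (-0.48), Zap70 (-0.63) and Cd79b (-0.70) were lowest. Itgam (0.16), Mmp8 (0.15) and Mmp9 (0.12) headed the granulocyte and monocyte list, and Camp (-0.50), Irf8 (-0.51) and Lcn2 (-0.58) ended it. Cps1 (0.32), Afp (0.19) and Tat (0.13) headed the hepatocyte list, and Apoc3 (-0.51), Apoa1 (-0.56) and Ambp (-0.85) ended it. Camk2a (-0.44), Kcnj6 (-0.60) and Rbfox3 (-0.74) ended the neuronal list.

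Muscle genes lay low, in territories of a median 49.7% GC. Before rescaling 10 of 20 (50%) were at -0.3 or less, against 23.6% of all genes but 46.3% of genes in the GC decile of that median. After it 7 were (35%), against 11.1% of all genes and 13.9% of that decile. Acta1, the skeletal actin gene, had 51 RUNX1 against 102 scaled input reads (-0.93), Myh6 75 against 142 (-0.88) and Des 71 against 123 (-0.75). After rescaling they were at -0.68, -0.64 and -0.69. Tnni3 (0.21), Actc1 (0.17) and Myl1 (0.15) were highest. The list medians for FLI1 were -0.37 before and -0.21 after rescaling.

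Gene families differed in base composition. The 1113 olfactory receptors had a median log2 ratio of 0.22, with 454 (40.8%) at 0.3 or more, against 10.5% of all genes. Their median GC content was 38.2% and their median input density 5.81 positions per kb. After rescaling the median was -0.00 and 117 (10.5%) reached 0.3. This was near the 8.02% of all genes and the 11.7% of the shortest decile by territory length, where the list's median length of 41.0 kb lies. Before rescaling, Olfr821 (1.11) followed Olfr820 and shares its territory, and Olfr527 (-0.80), Olfr320 (-0.85) and Olfr373 (-0.89) were lowest. Olfr527 was at 0.15 over its gene body alone and Olfr320 at 0.15 with flanks of 50 kb. The 321 vomeronasal receptors, of which 251 had 20 reads or more, went likewise from 78 (24.3%) to 19 (5.92%), against 10.5% and 8.02% of all genes. Vmn2r112 (0.84), Vmn2r105 (0.78) and Vmn2r69 (0.76) were highest, and Vmn2r31 (-1.25), Vmn2r50 (-1.29) and Vmn2r5 (-1.35), were lowest, on 1, 4 and 2 RUNX1 reads. Their counting intervals were -8.55 to -0.68, -3.99 to -0.68 and -5.75 to -0.77.

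The clustered histone genes, which feed chromatin assembly during DNA replication, behaved in another way. Of 67, 35 (52.2%) reached 0.3 before rescaling and 40 (59.7%) after it, against 10.5% and 8.02% of all genes. The median went from 0.32 to 0.39. They lie in only 8 overlapping groups, so they are few independent loci. Hist1h3e had 114 RUNX1 against 60.1 scaled input reads (0.87), Hist1h2bh 113 against 61.2 (0.83) and Hist1h2bf 110 against 59.6 (0.83), whereas Hist3h2ba (-0.19), Hist3h2a (-0.20) and Hist4h4 (-0.22), outside the large cluster, were lowest. FLI1 gave a list median of 0.49 before and 0.50 after rescaling.

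The 39 Hox genes, patterning factors in 5 overlapping groups, went from 6 at 0.3 or more (15.4%, against 10.5% of all genes) to 10 after rescaling (25.6%, against 8.02%) and held no bin of 6 RUNX1 reads. Hoxd12, Hoxd11 and Hoxd13 were at 0.53, 0.50 and 0.49, Hoxd11 and Hoxd13 being below 0 over their gene bodies alone (-0.17 and -0.34), and Hoxb3 (-0.20), Hoxb2 (-0.30) and Hoxb1 (-0.35) lowest. Hoxa11 was highest after rescaling, at 0.54. The FLI1 median of the Hox list was 0.08 after rescaling, against 0.22 for RUNX1. Genes of cytosolic ribosomal proteins went from 6 of 82 (7.32%), below all genes, to 18 (22.0%), above them. They ran from Rpl6 (0.55), Rpl23a (0.46) and Rpl37 (0.42) to Rps15 (-0.48), Rps24 (-0.49) and Rpl7a (-0.63). Over gene bodies alone Rps15 was at 0.51 and Rpl7a at 0.091. The 367 Zfp genes stayed near all genes, with 31 (8.45%) and 28 (7.63%), from Zfp804a (0.70), Zfp616 (0.63) and Zfp91 (0.58) to Zfp125 (-0.84), Zfp825 (-0.91) and Zfp600 (-1.09).

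The MK_Mat list, which the study drew from microarrays and not from these libraries, stood slightly above all genes. Its 687 matched genes had a median log2 ratio of 0.01, 0.09 above the median of all genes. Of them, 103 (15%) reached 0.3, against 10.5% of all genes. With FLI1 in place of input the difference between the medians was -0.08. After rescaling the median was 0.12 and 137 (19.9%) reached 0.3, against 1657 of the other 21680 genes (7.64%). Before rescaling, Thbs1 (0.77), Hist1h3d (0.74) and Nrgn (0.71) were highest, and H2-Q7 (-0.79), Oas1c (-0.90) and C1qtnf6 (-1.05) lowest. Over its gene body alone Hist1h3d was at -0.45. The supplement does not hold this symbol, which came from matching its entries to the annotation. Its entries of this histone family are named Hist1h3a. Without bins of 6 or more RUNX1 reads, 117 genes (17.0%) reached 0.3 after rescaling, against 7.31% of all genes. A bin of 6 or more RUNX1 reads was found in 287 of the 687 territories (41.8%) and in 4905 of all territories (21.9%), and MK_Mat territories were longer, at a median of 66.4 kb.

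Within that list, the study classed 190 of the matched genes as dependent on NF-E2. Of these, 56 reached 0.3 after rescaling (29.5%), and of the other 497, 81 did (16.3%), against 8.02% of all genes. Before rescaling the counts were 45 (23.7%) and 58 (11.7%), against 10.5% of all genes, so the second share was near that of all genes. Hist1h3d, Nrgn and Trove2 (0.70) were highest before rescaling and Mcpt1 (-0.45), Syt13 (-0.50) and Ndrg4 (-0.60) lowest. The medians after rescaling were 0.16 and 0.10. The shares with a rich bin were alike, at 42.6% and 41.4%.

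RUNX1 reads gathered at gene starts, and the excess differed between lists. Reads were summed gene by gene, so a read near several gene starts counts more than once. The intervals below may therefore be too narrow, most of all for lists with many overlapping territories. Within 1 kb of the start the RUNX1 to rescaled input ratio was 1.31 (1.30 to 1.32) over all genes, 1.60 (1.55 to 1.66) over MK_Mat genes, 2.03 (1.75 to 2.36) over platelet receptors, 2.30 (1.97 to 2.67) over MK and progenitor transcription factors and 0.89 (0.85 to 0.92) over olfactory receptors. Before rescaling these ratios were 1.48, 1.86, 1.99, 2.85 and 0.995, in the same order. The olfactory receptor value joins unlike steps: the 1 kb upstream of the start was at 1.33 before and 1.01 after rescaling, and the 1 kb downstream at 0.756 and 0.771 (0.729 to 0.815). Neuronal genes were at 1.08 (0.83 to 1.39), an interval that includes an equal share. From 5 to 20 kb downstream of the start, all genes were at 0.99 and MK_Mat genes at 1.11 (1.09 to 1.13), platelet receptors at 1.31 (1.23 to 1.41) and signalling genes at 1.25 (1.17 to 1.33). From 5 to 20 kb upstream, MK_Mat genes were at 1.06 (1.04 to 1.07) and platelet receptors at 1.07 (1.00 to 1.16). The downstream side thus exceeded the upstream side for receptor genes by more than counting error. FLI1 gave 1.56 over all gene starts and 2.88 over those of platelet receptors.

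**Figure D5:**
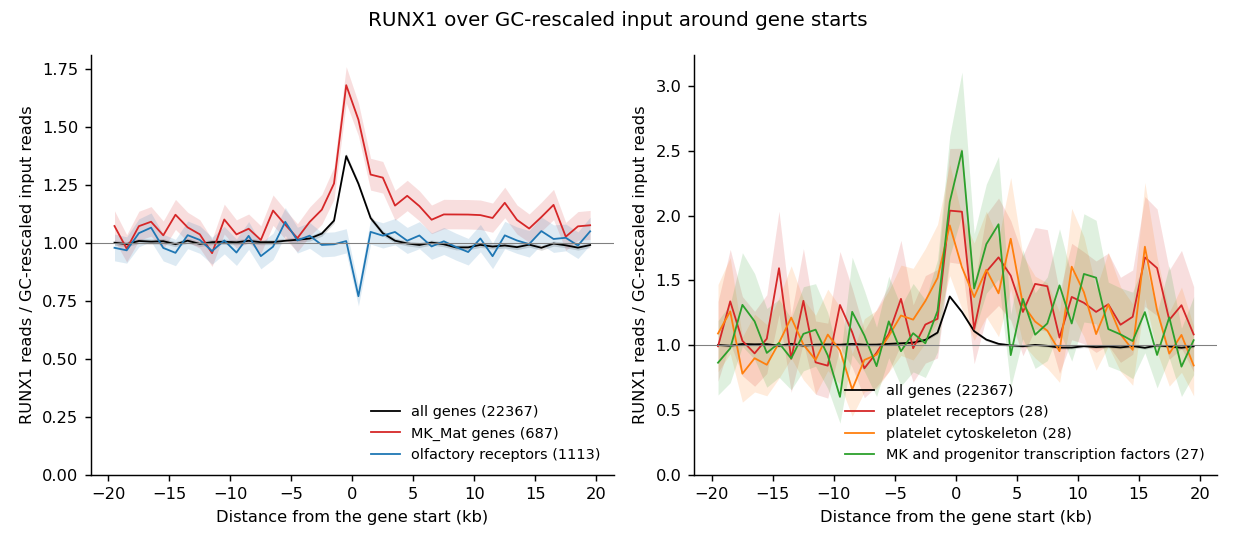
Ratio of RUNX1 reads to GC-rescaled input reads in steps of 1 kb (vertical axis) against distance from the gene start in kb (horizontal axis, positive downstream), summed over the genes of each list, with 95% counting intervals shaded. All lists drawn except olfactory receptors stand highest near the start, at 1.31 within 1 kb for all genes and 2.30 for MK and progenitor transcription factors.

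Bins rich in RUNX1 reads held the Runt core more often than other bins, in part with GC content. Of 3742425 bins without a RUNX1 read, 27.0% held TGTGGT or TGCGGT on either strand, against 35.7% (34.3 to 37.1%) of the 4512 bins with 6 or 7 reads and 42.4% (38.9 to 46.0%) of the 761 bins with 8 to 11. Of the 168 bins with 12 or more reads, 41.7% (34.1 to 49.5%) held the core, at a mean of 46.8% GC and 18.3 input reads. Mean GC content went from 41.7% in bins without a RUNX1 read to 51.4% in those with 8 to 11. Within GC contents of 40 to 45%, the share was 29.5% of bins with up to 2 reads and 35.1% (32.3 to 38.0%) of those with 6 or more. Within 45 to 50%, it was 29.7% and 43.1% (40.2 to 46.0%), and within 50 to 55% it was 30.6% and 44.1% (40.4 to 47.8%). Input was not matched within these GC ranges. At 45 to 50% GC its mean was 4.21 reads in bins with up to 2 RUNX1 reads and 6.33 in those with 6 or more. Rich input bins also held the core more often, 36.1% at 16 to 24 reads against 23.7% at 0. Bins of 6 or more reads held 0.972% of all RUNX1 reads, so this description concerns a small part of the library.

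Over the same territories FLI1 reached 0.3 in 2669 genes (11.9%), and in 2269 (10.1%) after rescaling. After rescaling, 12 platelet receptor genes (42.9%) reached 0.3 for RUNX1 and 18 (64.3%) for FLI1, with list medians of 0.26 and 0.44. For cytoskeletal genes the shares were 39.3% for RUNX1 and 60.7% for FLI1, for signalling genes 29.0% and 64.5%, and for MK_Mat genes 19.9% and 33.9%. For granule cargo they were 22.7% and 27.3%, for granule biogenesis and release 15.4% and 38.5%, and for the transcription factors 40.7% and 55.6%. Values for the genes above are best read in pairs. After rescaling, Rap1b stood at 1.21 for RUNX1 and 1.20 for FLI1, Itgb3 at 0.89 and 0.91, and Thbs1 at 0.93 and 1.00. In the same order, the values were 0.57 and 1.09 at Gp1ba, 0.51 and 1.10 at Pfn1 and 0.65 and 1.10 at Tgfb1. They were 0.65 and 0.37 at Vcl, 0.99 and 0.81 at Frmd8, 0.82 and 0.55 at Lamtor3 and 0.54 and 0.17 at Rpl23a.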

How the data were processed

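ChIP-seq reads of RUNX1, FLI1 and input DNA from mature MKs (1 library each) were used. The study's methods name Bowtie (version not given in the sources used here) for ChIP-seq reads aligned to mm9. The input file has another format, with mismatch codes, and its aligner is not given in the sources used here. Uniquely mapped reads were deposited by the authors as positions and strands, so the other values here are counts made from deposited positions and not a normalised signal. MACS 1.4 and SICER 1.1 in the submitters' processing notes gave no file used here. Both ChIP files hold no position and strand more than once. Repeats made up 3.24% of the deposited input and were removed.

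Reads were counted by their 5′ end in gene body ± 20 kb of GENCODE M1 protein-coding genes, without chromosome M and 400-bp bins of 47 or more input reads, with Python 3.11.15, numpy 2.4.6, pandas 2.3.3 and scipy 1.17.1. Input was scaled to the RUNX1 depth by total reads, and the log2 ratio used a pseudocount of 5 reads. Intervals are exact (Clopper-Pearson) 95% binomial. They cover counting error only. Counting was tested on simulated data. With 1 library per group no test or p-value is given.

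Named genes are the first 20 from the top and 10 from the bottom with at least 20 reads (RUNX1 plus scaled input). Genes whose territory overlapped a territory already taken were skipped. Also named are 10 fixed genes of the study, and the 3 highest and 3 lowest members of each list. Leaders after GC rescaling and some list members were named after their values were seen. Some genes that these rules name are not reported here. Genes, lists and rules were chosen with earlier results of these data known. MK_Mat genes were matched by accession or symbol. Of 690 distinct symbols read from the supplement's text, 685 were matched, to 687 genes. The study's own count is slightly higher, and the supplement gives some symbols, such as Csf2rb, under more than 1 accession. Alternatives changed flank, bins, scaling, pseudocount, repeated positions, strand, read position, GC weighting, low counts, reference library and sex chromosomes.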

Additional observations from a re-analysis of the deposited data

Results flagged for a closer look

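Signals outside the ranking were higher in RUNX1 than in the input used as control. Chromosome M, which was left out, held 0.0465% of RUNX1 positions (1849 of 3975705, interval 0.0444 to 0.0487%), against 0.0131% of input and 0.0138% of FLI1 positions. The 314 bins with 47 or more input reads, also left out, held 0.317% of RUNX1 reads (0.311 to 0.322%), against 0.123% of input positions and 0.103% of FLI1 reads. With repeated input positions kept, the input share in these bins was 1.18%, above that of RUNX1.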

How the results depend on the processing

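The design has 1 library per group, so precipitates could not be compared, and the deposited RUNX1 positions, far fewer than the tags the study lists, limit single territories to differences of about 1.24-fold. No paired analysis was possible because each group has 1 library and no test was made. Of 23 alternatives, 20 were planned and 3, which join GC rescaling with strand or with rich bins left out, were added after seeing the data. The cause of each change below was not tested.

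The count of genes at 0.3 or more (2345) was 3589 when input was scaled to the median territory and 1110 with FLI1 in place of input. The count at -0.3 or less (5287) was 2488 after GC rescaling, 2358 with rich bins also left out, 2943 and 2820 with GC rescaling on the plus and minus strand, and 2132 with FLI1 in place of input. The MK_Mat median stood 0.092 above that of all genes. It stood 0.120 above over gene bodies, 0.0622 above with flanks of 50 kb, 0.119 above after GC rescaling, the same on the plus strand, and differed by -0.0771 with FLI1 in place of input. The other alternatives left these results within 1.5 times or within their interval.

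Beside the sign changes given next, of 175 gene values followed 45 left their counting interval after GC rescaling (24 higher and 21 lower) and 39 with flanks of 50 kb (11 higher and 28 lower). Over gene bodies alone 60 of 174 did so (37 higher and 23 lower), with FLI1 in place of input 70 (27 higher and 43 lower), and with GC rescaling on the plus and minus strand 58 and 55. Of the genes past 0.3 in size, 93 of 142 stayed so over gene bodies and 42 of 143 with FLI1 in place of input. Some log2 ratios of genes past 0.3 in size changed sign. Over gene bodies alone, which hold few reads for short genes, these were Olfr820 -0.29, Olfr304 -0.33, Olfr851 -0.33, Olfr196 -0.023, G6pd2 -0.11, Olfr1160 -0.45, Hist1h2bh -0.052, Hnrnpa1 -0.097, Frmd8 -0.021, Hist1h3d -0.45, Nup107 -0.11, Ppbp -0.65, Gfi1b -0.034, Hoxd11 -0.17, Hoxd13 -0.34, Hbb-y -0.76, Rps15 0.51, Apoa1 0.020, Rpl7a 0.091, Olfr527 0.15 and B430203G13Rik 0.021. With flanks of 50 kb they were Actg1 -0.12, Gp1ba -0.0072, Tpm4 -0.064 and Olfr320 0.15, and over 20 kb to either side of the gene start Frmd8 -0.14, Lphn3 -0.18 and Rasa3 -0.13. With repeated input positions kept, Gm10722 -0.65 changed. GC rescaling gave Lgals3bp 0.0027, 0.030 with rich bins also left out, and on the plus strand Lgals3bp 0.051, Gnaz 0.043 and Tspo2 0.022. With FLI1 in place of input, which compares the precipitates with each other, the median of clustered histones was -0.11, and the genes were Rap1b -0.021, Hist1h3e -0.076, Hist1h2bh -0.088, Hist1h2bf -0.24, Gm17507 -0.44, Gm4694 -0.11, Thbs1 -0.10, Egr1 -0.45, Hnrnpa1 -0.16, Myl4 -0.0081, Hist1h3d -0.22, Nacc1 -0.50, Nrgn -0.082, Itgb3 -0.070, Esam -0.026, Rnasek -0.23, Rgs18 -0.21, Gm17607 -0.087, Gadd45g -0.25, Nfe2 -0.36, Rpl6 -0.22, Ppbp -0.32, Gfi1b -0.032, Pf4 -0.33, Tgfb1 -0.56, Clec1b -0.12, Meis1 -0.18, Rpl37 -0.24, Lyl1 -0.43, Myh9 -0.41, Rab38 -0.072, Rab27b -0.14, Gp1ba -0.58, Tpm4 -0.32, Pfn1 -0.66, Vamp8 -0.16, Srgn -0.36, Rasa3 -0.035, Tspo2 0.0059, Camk2a 0.089, Apoc3 0.019, Gas6 0.19, Ank1 0.046, Apoa1 0.093, Zap70 0.069, Proz 0.072, Rbfox3 0.038, H2-Q7 0.22, Zfp125 0.22, Zfp600 0.21, Vmn2r50 0.19, Gm9880 0.55 and Gm1604A 0.046. No other list of the 21 had a median past 0.3 in size.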
